A study of Mus musculus with 6 samples.

Results

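Platelet-derived growth factors (PDGFs) and vascular endothelial growth factors (VEGFs) were examined in bone marrow mesenchymal stem cells (BMMSCs), with the genes taken as the rows of the deposited RPKM table whose symbol is Pdgfa, Pdgfb, Pdgfc, Pdgfd, Pdgfra, Pdgfrb, Vegfa, Vegfb, Vegfc or Flt1. All 10 genes were found, each in 1 row, among 36870 distinct symbols, and they comprise 7 ligands and 3 receptors. BMMSCs, the adherent cells grown from C57BL/6 mouse marrow, were given non-targeting control siRNA (3 libraries) or siRNAs against Tet1 and Tet2 together (3 libraries, siTet1/Tet2). The study asked whether these enzymes, which convert 5-methylcytosine to 5-hydroxymethylcytosine, maintain BMMSCs and bone, mainly with knockout mice. RNA-seq of siRNA-treated cells was 1 of its experiments. The cells were at passage 2 by the sample labels, whereas the methods name an earlier passage. For the controls, the methods on siRNA name non-targeting siRNA like the labels, and those on RNA-seq name vehicle. The age of the mice behind these cells is not given in the sources used here. Neither the labels nor the methods say whether replicates came from separate cultures, so p-values measure only the spread between these libraries, which may be technical.

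PDGFs and VEGFs are related secreted dimers held together by disulphide bonds, and their receptors are tyrosine kinases of the cell surface. PDGF receptor alpha and beta are expressed by fibroblasts, mesenchymal progenitors and mural cells, in which they drive division and migration, and both are used to identify stromal cells of the marrow. PDGF-A, PDGF-B and PDGF-C bind receptor alpha, whereas PDGF-B and PDGF-D bind receptor beta. VEGF-A acts on the receptors encoded by Flt1 and Kdr, VEGF-B on Flt1, and VEGF-C mainly on Flt4, so that VEGFs made by stromal cells act mostly on neighbouring endothelial cells.

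RPKM, a read count corrected for transcript length and for library size, allows levels to be compared between genes. The targeted gene Tet2 was at 2.57, 4.08 and 3.71 RPKM with control siRNA and 0.358, 0.238 and 0.202 RPKM with Tet1/Tet2 siRNA. Tet1 was at 0.032, 0.098 and 0.05 RPKM with control siRNA and at 0.001, 0.01 and 0.001 RPKM with Tet1/Tet2 siRNA, where 0.001 is the lowest listed value, and it was below the expression minimum for the test. The table gives no read totals. An estimate from the steps between low values, in which between 51.6% and 60.1% of values came within 0.1 of a whole read where 20% would by chance at a depth fixed beforehand, put the libraries at 32400000 to 38500000 reads. By that estimate the lowest of the 10 genes, Pdgfd in the siTet1/Tet2 libraries, rested on 47 to 68 reads, and Flt1 on 174 to 246 reads over all libraries. Fewer cells of a type and less RNA per cell cannot be told apart in these bulk samples.

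Both PDGF receptors and 3 of the 7 ligands fell after Tet1/Tet2 siRNA, and 1 ligand rose. Pdgfra fell 10.5-fold, Pdgfd 8.96-fold, Pdgfrb 5.81-fold, Vegfc 2.75-fold and Vegfa 2.52-fold as ratios of mean RPKM, while Pdgfb rose 1.26-fold. Vegfb, Pdgfc, Pdgfa and Flt1 did not pass the test. The groups were compared on log2(RPKM + 1) with limma, and a gene was called with a Benjamini-Hochberg adjusted p under 0.05 over the 13266 genes that averaged 0.1 RPKM or more. All 10 genes were tested, of which 5 were called lower and 1 was called higher. Among all genes tested, 29.8% were called lower and 14.7% were called higher, so a call by itself was frequent in this comparison. Stricter thresholds on size, a change of more than 2-fold on this scale with an unadjusted p below 0.05, were passed by 4 of the 10 genes, Pdgfra, Pdgfrb, Pdgfd and Vegfa, all of them lower. Of all genes tested, 5.63% passed these thresholds and were lower. The median log2 fold change was -0.61 over the 10 genes and -0.09 over all genes tested. Fold changes on the log2(RPKM + 1) scale understate the change of low genes.

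**Figure D1:**
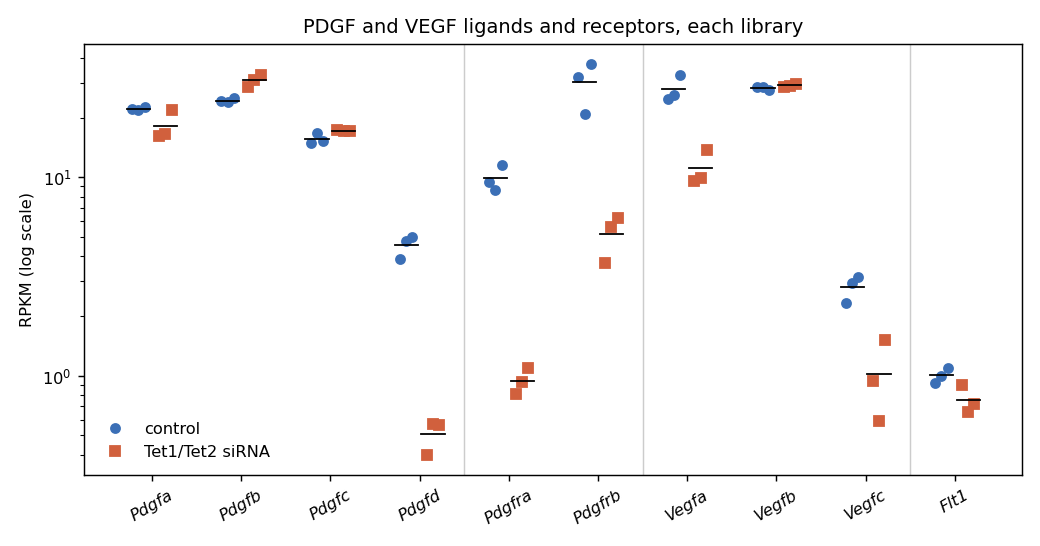
RPKM of each PDGF and VEGF gene in the 3 control libraries (circles) and the 3 siTet1/Tet2 libraries (squares), on a log axis, with a bar at each group mean and vertical lines between PDGF ligands, PDGF receptors, VEGF ligands and Flt1. Pdgfra, Pdgfrb, Pdgfd, Vegfa and Vegfc lie apart in the 2 groups, whereas the points of Vegfb and Pdgfc lie close together.

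In control BMMSCs the most abundant of these genes per length was Pdgfrb, at 30.2 RPKM on average, followed by Vegfb at 28.2, Vegfa at 28.0, Pdgfb at 24.4, Pdgfa at 22.3, Pdgfc at 15.7, Pdgfra at 9.92, Pdgfd at 4.56, Vegfc at 2.80 and Flt1 at 1.00 RPKM. Neighbours from Pdgfrb to Pdgfb overlapped between libraries, so their order was not resolved, and all later neighbours were separate. Pdgfrb, with a lowest control value of 20.9 RPKM, also overlapped with Pdgfa, at 21.9 to 22.6 RPKM, so their order was not resolved either. In siTet1/Tet2 BMMSCs the order was led by Pdgfb, at 30.8 RPKM, and Vegfb, at 29.1 RPKM, which overlapped. Pdgfrb moved from rank 1 to rank 6 of the 10 genes and Pdgfra from rank 7 to rank 8, where it overlapped with Vegfc and Flt1. Pdgfd was the lowest, at rank 10.

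The siTet1/Tet2 libraries all lay below the control libraries for 6 of the 10 genes (35.9% of all genes tested) and all above them for 3 (19.8% of all genes tested). Only Pdgfa had overlapping groups among the 10 genes.

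The PDGF receptors were examined first. Pdgfra, the receptor of PDGF-A, PDGF-B and PDGF-C, lies on chromosome 5 of GRCm38 from 75152292 to 75198215. It was at 9.51, 8.65 and 11.6 RPKM with control siRNA and 0.805, 0.934 and 1.09 RPKM with Tet1/Tet2 siRNA. The highest siTet1/Tet2 library was far below the lowest control library. Its log2 fold change was -2.48 (SE 0.12, limma adjusted p = 3.69e-06), the largest of the 10 genes. By flow cytometry, the paper reports BMMSCs from both control and Tet1/Tet2 double knockout mice as positive for PDGFR protein. Those were other cells than the siRNA-treated ones here.

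Pdgfrb, whose protein is the receptor of PDGF-B and PDGF-D, lies on chromosome 18 from 61045150 to 61085061. Its values were 32.1, 20.9 and 37.5 RPKM with control siRNA and 3.69, 5.62 and 6.26 RPKM with Tet1/Tet2 siRNA. Control replicate 2 was the lowest control library, and it still exceeded every siTet1/Tet2 library. The log2 fold change was -2.32 (SE 0.23, limma adjusted p = 0.000106).

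The 2 receptors were compared with each other by their ratio, which was higher with Tet1/Tet2 siRNA without reaching an exact p under 0.05. The ratio of Pdgfrb to Pdgfra RPKM within a library, which does not depend on how a library is scaled, was 3.38, 2.41 and 3.23 in the control libraries and 4.58, 6.02 and 5.73 in the siTet1/Tet2 libraries. It was higher in each of the 3 siTet1/Tet2 libraries than in any control library. The difference was 0.86 on the log2 scale (two-sided exact permutation test, p = 0.1), and 0.1 is the smallest p that 3 libraries against 3 allow. With 1 RPKM added to both values the difference was 0.17 (exact permutation p = 0.5).

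By Pearson's r of log2(RPKM + 1) over the 6 libraries, the genes most like Pdgfra among 11067 that averaged 1 RPKM or more were Gbp7 (0.9996), Angpt1 (0.9996) and Parm1 (0.9994). Those most like Pdgfrb were Arxes2 (0.9985), Psme3 (0.9983) and Lpin3 (0.998). With 2 groups of 3 libraries these values mostly reflect the difference between the groups, and they are given as a description.

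Stromal markers fell in the same libraries. Of 15 listed stromal markers, 12 were tested and 10 were called lower (83.3%), against 29.8% of all genes tested. Over the 12, the median of the log2 mean ratios was -2.22. On the log2(RPKM + 1) scale of the test, the median log2 fold change was -1.53. The summed level of the list was 992 to 1510 RPKM in the control libraries against 137 to 277 RPKM in the siTet1/Tet2 libraries. The most abundant were the fibrillar collagen genes Col1a1, at 488.4 and 72.1 RPKM on average, Col1a2, at 436.9 and 76.4 RPKM, and Col3a1, at 124.6 and 14.1 RPKM. Lum, Thy1 and Lepr were below the expression minimum in these cultures, with no value over 0.146 RPKM in any library. Macrophage markers were abundant, with a summed level of 6530 to 8610 RPKM in the control libraries and 14200 to 17300 RPKM in the siTet1/Tet2 libraries. Of 11 macrophage markers tested, 6 were called higher (54.5%) and 2, Mrc1 and Fcer1g, lower (18.2%), against 14.7% and 29.8% of all genes tested. Lyz2, which made up most of the sum, went from 4439 to 11321 RPKM on average. Cd68 went from 874.8 to 1316 RPKM and Tyrobp from 465.6 to 1164 RPKM, whereas Ptprc, the gene of CD45, was at 52.6 and 53.0 RPKM (adjusted p = 0.949 from limma). Smaller rises were called for Csf1r, from 499.5 to 603.9 RPKM, and Itgam, from 97.2 to 111.9 RPKM. Emr1, at 304.5 and 349.7 RPKM, and Spi1, at 195.6 and 208.9 RPKM, were not called. The part of these markers in the changes of the PDGF and VEGF genes was not tested.

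The 2 receptors and the ligands were also set against the stromal markers, as a description. In log2 RPKM relative to the median of the 12 tested stromal markers of the same library, Pdgfra was at -1.17 to -0.88 in the control libraries and at -2.51 to -2.09 in the siTet1/Tet2 libraries, so it fell by more than the stromal median in each of them. Pdgfrb was at 0.10 to 0.81 and at 0.01 to 0.44 on this scale, and its groups overlapped. Pdgfd went from between -2.26 and -2.02 to between -3.47 and -2.87. Vegfa was relatively higher, at 0.41 to 0.63 against 1.14 to 1.47, so its decrease was smaller than that of the stromal median, and Vegfc overlapped at -3.00 to -2.74 and -2.82 to -1.86. By the log2 ratio of the group means, 0 of the 12 stromal markers had a lower value than Pdgfra, 1 than Pdgfd and 5 than Pdgfrb. On the log2(RPKM + 1) scale of the test, which understates low genes, the counts were 4 for Pdgfra, 5 for Pdgfd and 5 for Pdgfrb, so the place of Pdgfra among the stromal markers depended on the scale.

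**Figure D2:**
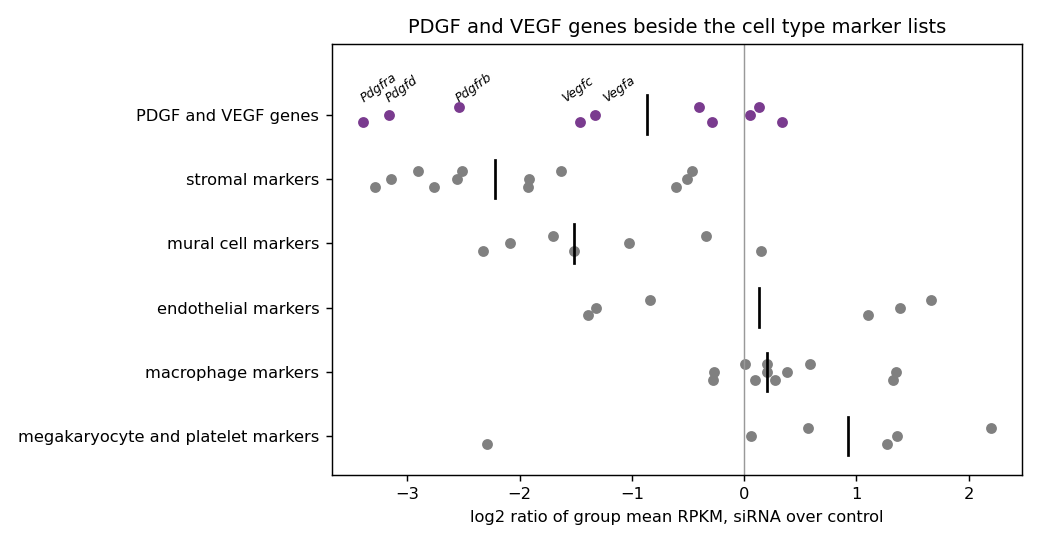
Log2 ratio of the group mean RPKM (siRNA over control) of the PDGF and VEGF genes and of the tested genes of 5 cell type marker lists, 1 point per gene, with a bar at the median of each list. On this scale, with no RPKM added, Pdgfra lies below all 12 stromal markers and Pdgfd and Pdgfrb lie among them, the stromal median is -2.22, and the macrophage markers have a median of 0.20.

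Mural cells, the contractile cells around vessels, also carry Pdgfrb. Of 10 mural markers, 7 were tested, 5 were called lower (71.4%, against 29.8% of all genes tested) and 2 not called. Acta2 and Tagln, which encode smooth muscle actin and transgelin, went from 787.7 to 156.5 RPKM and from 414.5 to 144.5 RPKM. The other lower markers were low already with control siRNA, Notch3 at 1.06, Des at 0.757 and Myh11 at 0.414 RPKM on average. Those not called were Mcam, at 1.31 and 1.03 RPKM (adjusted p = 0.162 from limma), and Cspg4, at 0.192 and 0.214 RPKM. The pericyte markers Rgs5, Abcc9 and Kcnj8 were below the expression minimum.

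Tet enzymes act on methylated cytosines that precede guanines (CG pairs). The promoters of Pdgfra and Pdgfd, the 2 genes with the largest decrease as a ratio of mean RPKM, are therefore shown. The 250 bases before the RefSeq start of Pdgfra (GRCm38.p6, chr5:75152001-75152250, plus strand) hold 4 CG pairs and those of Pdgfd (chr9:6168236-6168485, plus strand) hold 3, with each CG pair in capitals and the sequence written 5′ to 3′.
Pdgfra: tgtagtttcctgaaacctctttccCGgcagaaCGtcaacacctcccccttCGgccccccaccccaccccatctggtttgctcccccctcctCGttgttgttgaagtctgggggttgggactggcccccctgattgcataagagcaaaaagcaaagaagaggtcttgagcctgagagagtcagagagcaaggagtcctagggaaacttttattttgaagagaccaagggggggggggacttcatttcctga
Pdgfd: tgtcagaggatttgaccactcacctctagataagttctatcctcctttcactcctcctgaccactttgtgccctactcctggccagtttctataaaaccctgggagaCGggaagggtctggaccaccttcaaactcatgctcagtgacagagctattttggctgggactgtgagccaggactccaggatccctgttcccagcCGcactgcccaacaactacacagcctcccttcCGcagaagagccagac

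Windows of this kind were found for 8 of the 10 genes, 10 windows in all, and no entry was found for Pdgfb and Pdgfrb. The median of all 32851 promoters in the RefSeq table was 6 CG pairs. As many pairs as Pdgfra or more were held by 62.2% of these promoters, and as many as Pdgfd or more by 71.0%. Pdgfc, which was not called, held 3 pairs like Pdgfd, whereas Vegfc, which was called lower, held 30. Flt1 held 23, and the 2 windows of Pdgfa held 19 and 28. Bases after the start were not counted, and a relation between these counts and the calls was not tested. DNA methylation was not measured in these libraries.

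The PDGF ligands diverged. Pdgfd encodes a ligand of receptor beta that is secreted in a latent form and freed by proteolysis. It lies on chromosome 9 from 6168584 to 6378850 and was at 3.89, 4.79 and 4.99 RPKM with control siRNA and 0.397, 0.568 and 0.561 RPKM with Tet1/Tet2 siRNA. The siTet1/Tet2 libraries were all far below the control libraries, with a log2 fold change of -1.88 (SE 0.10, limma adjusted p = 7.15e-06).

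Pdgfb encodes the ligand that binds both PDGF receptors and draws mural cells to vessels. It lies on chromosome 15 from 79995874 to 80014977, and was at 24.2, 23.9 and 25.0 RPKM with control siRNA and 28.6, 31.1 and 32.8 RPKM with Tet1/Tet2 siRNA. Every siTet1/Tet2 library was above every control library, a small rise with a log2 fold change of 0.33 (SE 0.07, limma adjusted p = 0.00512). Relative to Gapdh its adjusted p was 0.0818. Pf4, the most abundant marker of the megakaryocyte and platelet list and also known from monocytes, went from 235.1 to 603.3 RPKM in the same libraries. In that list 3 of 6 tested markers (Pf4, Ppbp and Gp1ba) were called higher (50%) and Gp1bb lower (16.7%). Among all genes tested, 14.7% were called higher and 29.8% lower. Treml1 and Ppbp, the next in abundance, were at 1.02 and 0.188 RPKM with control siRNA and 1.51 and 0.864 RPKM with Tet1/Tet2 siRNA. Gp9 and Gp6 were below the expression minimum. The part of these cells or of macrophages in the rise of Pdgfb was not tested.

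Pdgfa, a ligand of receptor alpha on chromosome 5 from 138976014 to 138997370, was at 22.26, 21.944 and 22.58 RPKM with control siRNA and 16.184, 16.481 and 21.996 RPKM with Tet1/Tet2 siRNA. Replicates 1 and 2 were well below the controls, but siTet1/Tet2 replicate 3 lay within their range. The log2 fold change was -0.29 (SE 0.11, limma adjusted p = 0.0653). With the replicate number as a block the adjusted p was 0.0278, and without siTet1/Tet2 replicate 3 the log2 fold change was -0.42 with an adjusted p of 0.0026 from limma, so whether Pdgfa was called depended on the block and on that library.

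Pdgfc, a latent ligand on chromosome 3 from 81036416 to 81214040, was at 14.9, 16.8 and 15.3 RPKM and at 17.4, 17.2 and 17.1 RPKM. The siTet1/Tet2 libraries were slightly above the controls, with a log2 fold change of 0.13 (95% interval -0.03 to 0.29, adjusted p = 0.166 from limma). It was called higher with median ratio scaling (adjusted p = 0.0298 from limma) and after quantile normalization (adjusted p = 0.0141).

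Summed over the 4 PDGF ligands the level was 65.2 to 68.0 RPKM in the control libraries and 62.6 to 72.4 RPKM in the siTet1/Tet2 libraries, so the sums overlapped while the makeup changed. Pdgfb made up 35.4% to 37.1% of the sum in the control libraries and 45.3% to 47.6% in the siTet1/Tet2 libraries. Pdgfd went from 5.97% to 7.34% of the sum to 0.634% to 0.869%, and Pdgfa from 32.5% to 34.1% to 25.2% to 30.4%. The summed level of the 2 PDGF receptors went from 29.5 to 49.1 RPKM in the control libraries to 4.49 to 7.36 RPKM in the siTet1/Tet2 libraries.

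**Figure D3:**
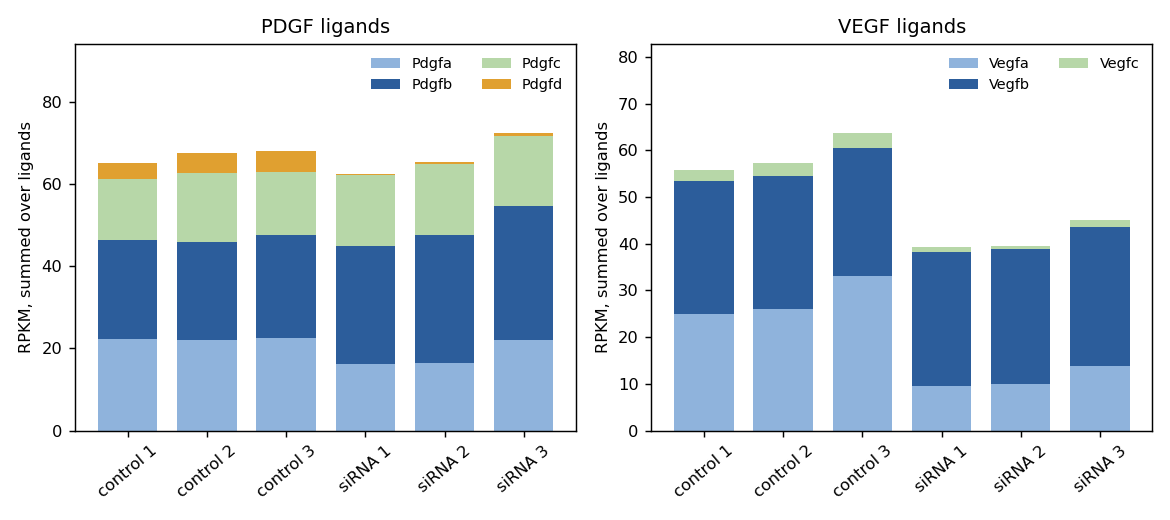
RPKM of the PDGF ligands (left) and VEGF ligands (right) stacked for each of the 6 libraries, with axes from 0. The PDGF sum is 62.6 to 72.4 RPKM in the siTet1/Tet2 libraries and 65.2 to 68.0 RPKM in the controls, whereas the VEGF sum is 39.2 to 45.0 RPKM against 55.8 to 63.6 RPKM.

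Among the VEGF ligands, Vegfa and Vegfc fell and Vegfb did not pass the test. Vegfa, the main growth factor of endothelial cells, is also made by osteoblast-lineage cells and couples vessel growth to bone formation. It lies on chromosome 17 from 46016993 to 46032369 and was at 24.9, 26.0 and 33.0 RPKM with control siRNA and 9.54, 9.98 and 13.8 RPKM with Tet1/Tet2 siRNA. All siTet1/Tet2 libraries were lower than any control library, with a log2 fold change of -1.27 (SE 0.15, limma adjusted p = 0.000266). The table holds 1 value per gene, so the 13 annotated transcripts of Vegfa could not be told apart.

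Vegfb, a ligand of Flt1 on chromosome 19 from 6982473 to 6987651, was at 28.5, 28.4 and 27.5 RPKM with control siRNA and 28.7, 28.9 and 29.7 RPKM with Tet1/Tet2 siRNA. Its log2 fold change was 0.05 (95% interval -0.08 to 0.17, adjusted p = 0.525 from limma), but the direction turned (-0.015) when library sums were made equal, and it was called higher after quantile normalization (0.16, adjusted p = 0.036).

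The ratio of Vegfa to Vegfb within a library was 0.875, 0.913 and 1.20 in the control libraries and 0.332, 0.345 and 0.464 in the siTet1/Tet2 libraries. The groups did not overlap, and the log2 difference was -1.39 (two-sided exact permutation test, p = 0.1, the smallest p possible). Vegfb thereby went from 43.2% to 51.1% of the summed VEGF ligands to 66.0% to 73.2%.

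Promoters of Vegfa and Vegfb are set side by side because these 2 ligands had similar levels in the control libraries and different ones after Tet1/Tet2 siRNA. The 250 bases before the start of Vegfa (GRCm38.p6, chr17:46032378-46032627, minus strand) hold 11 CG pairs and those of Vegfb (chr19:6987652-6987901, minus strand) hold 26, again in capitals.
Vegfa: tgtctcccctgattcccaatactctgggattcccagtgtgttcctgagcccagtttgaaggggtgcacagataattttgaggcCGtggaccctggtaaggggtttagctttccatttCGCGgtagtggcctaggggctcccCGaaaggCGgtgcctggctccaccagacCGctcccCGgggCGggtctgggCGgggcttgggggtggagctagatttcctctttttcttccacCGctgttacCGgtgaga
Vegfb: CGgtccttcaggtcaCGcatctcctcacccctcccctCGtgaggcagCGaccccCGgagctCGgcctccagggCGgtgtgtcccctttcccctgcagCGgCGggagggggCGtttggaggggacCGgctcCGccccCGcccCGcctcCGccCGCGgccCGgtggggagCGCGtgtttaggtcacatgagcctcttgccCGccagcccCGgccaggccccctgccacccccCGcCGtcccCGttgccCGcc

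The letters ACGTG and GCGTG, the core to which hypoxia-inducible factors bind, and GGGCGG, a core of Sp1 sites, were searched on both strands. GGGCGG was found 2 times for Vegfa and 4 times for Vegfb, and 32.7% of all promoters of this length held it. ACGTG was found in neither (16.6% of all promoters), and GCGTG 2 times for Vegfb and not in the Vegfa window shown (28.2% of all promoters). A further Vegfa window, upstream of a start within the gene, held ACGTG and GCGTG 1 time each. Such matches describe the letters only, and sites outside these windows were not searched.

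Vegfc, the ligand of lymphatic vessel growth, lies on chromosome 8 from 54077606 to 54187096. It was at 2.34, 2.92 and 3.14 RPKM with control siRNA and 0.944, 0.588 and 1.52 RPKM with Tet1/Tet2 siRNA, which did not overlap. The log2 fold change was -0.93 (SE 0.17, limma adjusted p = 0.00238), short of a 2-fold change once 1 RPKM was added, although the ratio of the means was 2.75.

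Flt1, which encodes VEGF receptor 1, lies on chromosome 5 from 147561604 to 147726011. It was low throughout, at 0.916, 0.992 and 1.10 RPKM with control siRNA and 0.893, 0.654 and 0.723 RPKM with Tet1/Tet2 siRNA. The groups were next to each other without overlap, and the log2 fold change of -0.19 (95% interval -0.38 to -0.01, adjusted p = 0.0881 from limma) did not pass, and turned to 0.045 after quantile normalization. Values for the soluble and the membrane form were not separate. Endothelial markers were low as well. Their summed level over 10 genes was 4.44 to 5.27 RPKM in the control libraries and 7.74 to 8.24 RPKM in the siTet1/Tet2 libraries, of which Vwf was 1.93 and 6.10 RPKM on average. Tek, Tie1, Cldn5 and Erg were below the expression minimum, and Cdh5 was at 0.497 and 0.278 RPKM. Of the 6 tested markers 3 (Pecam1, Vwf and Esam) were called higher (50%) and 2 (Emcn and Kdr) lower (33.3%). Among all genes tested, 14.7% were called higher and 29.8% lower.

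**Figure D4:**
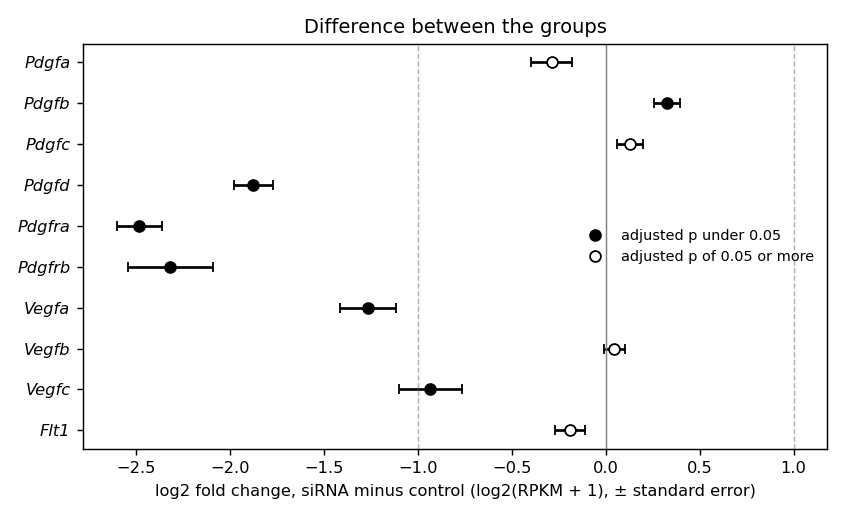
Log2 fold change on the log2(RPKM + 1) scale with its standard error for each PDGF and VEGF gene, filled where the adjusted p from limma was under 0.05, with dashed lines at a fold change of 2. Pdgfra is lowest at -2.48 and Pdgfb is highest at 0.33.

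The other genes of the families were lower or did not pass. Of 7 tested, 5 were called lower (71.4%, against 29.8% of all genes tested) and 2 not called. The median log2 fold change was -0.42, against -0.09 over all genes tested. With no RPKM added, the median of their log2 mean ratios was -1.39. The log2(RPKM + 1) scale understates the change of low genes such as Figf. Pgf, placental growth factor and a ligand of Flt1, went from 2.35 to 0.889 RPKM on average, a log2 fold change of -0.84 (adjusted p = 0.00681 from limma). Kdr, VEGF receptor 2, went from 1.58 to 0.604 RPKM (log2 fold change -0.69), and Figf, the older symbol of the gene of VEGF-D, from 0.601 to 0.117 RPKM (-0.52), the latter an estimated 2 to 15 reads per library. The coreceptor gene Nrp2 was far more abundant and fell less, from 111.8 to 83.1 RPKM (-0.42). Nrp1, the most abundant of the list, was at 156.0 and 143.7 RPKM and was not called (adjusted p = 0.291 from limma).

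Genes of proteins that cleave or bind the ligands mostly fell. Of 10 tested, 9 were called lower (90%) and 1, Lrp1, higher (10%), against 29.8% and 14.7% of all genes tested. The median log2 fold change was -1.56, against -0.09 over all genes tested and -1.53 over the tested stromal markers. Sparc, whose matrix protein binds PDGF, fell from 557.0 to 131.2 RPKM (-2.13), and Hspg2, which encodes the heparan sulphate proteoglycan perlecan, from 30.3 to 6.42 RPKM (-2.08). Cyr61 and Ctgf, which encode secreted CCN proteins of which the second binds VEGF-A, fell by 2.00 and 1.94 on the log2 scale. Plat and Plau, picked after their values were seen because their proteases activate PDGF-C and PDGF-D, went from 1.12 to 0.489 RPKM and from 220.7 to 84.6 RPKM, and both were called lower.

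Of 32 tested adaptor and kinase genes downstream of the receptors, 8 were called lower (25.0%), 7 higher (21.9%) and 17 not called, with a median log2 fold change of -0.01. These shares were near the 29.8% and 14.7% of all genes tested, so the counts are no result about the list. Src family kinase genes were among the lower ones, with Src at 11.8 and 5.66 RPKM (-0.94), Yes1 at 1.68 and 0.540 RPKM (-0.79) and Fyn at 22.8 and 14.8 RPKM (-0.59). Of 12 tested genes listed as feedback inhibitors, several of which the pathway itself induces in many cells, 8 were called lower. This was 66.7%, against 29.8% of all genes tested. The phosphatase genes Ptprj and Ptpn1, 2 of the 12 (16.7%), were called higher, against 14.7% of all genes tested. The median of this list was -0.39. Spry1 had the largest decrease, from 10.8 to 0.886 RPKM (-2.64, adjusted p = 2.20e-05 from limma), and Dusp6, a phosphatase of ERK, went from 51.2 to 25.8 RPKM (-0.97). Spred2 and Spred1 fell by 0.73 and 0.71 on the log2 scale.

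Immediate-early genes are switched on by growth factors within minutes. Of 14 tested, 6 were called lower (42.9%) and 4 higher (28.6%, Fos, Egr2, Egr3 and Atf3). Among all genes tested these shares were 29.8% and 14.7%. The median was -0.14, near that of all genes. Klf4 went from 7.94 to 2.72 RPKM (-1.28), Fosl1 from 5.74 to 2.56 RPKM (-0.96) and Myc from 26.3 to 13.3 RPKM (-0.95), whereas Egr2 rose from 1.37 to 3.23 RPKM (0.84).

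Oxygen sensing sets the level of Vegfa in many cells. Of the 8 genes listed, Hif1a, the alpha subunit of hypoxia-inducible factor, was called lower, from 44.7 to 23.9 RPKM (log2 fold change -0.88, adjusted p = 0.000302 from limma), and 7 were not called, with a median of 0.02. Of 16 hypoxia-responsive genes, 7 were called lower (43.8%) and 3 (18.8%, Ankrd37, Ndrg1 and Mxi1) higher, with a median of -0.15. Among all genes tested, 29.8% were called lower and 14.7% higher. Adm, which encodes the vasodilator adrenomedullin, fell from 33.7 to 3.76 RPKM (-2.88), Ddit4 from 20.8 to 6.91 RPKM (-1.47) and P4ha2, a collagen prolyl hydroxylase, from 34.6 to 16.7 RPKM (-1.01), while Mxi1 rose from 6.09 to 15.5 RPKM (1.22). The list did not move in 1 direction, and no list was tested as a set.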

How the data were processed

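Paired-end RNA-seq was performed on total RNA of 6 BMMSC samples. After adaptor removal and mapping to GRCm38, the authors quantified genes in DNASTAR Lasergene v15.0 and deposited linear RPKM (called FPKM in the methods), with 1 column per library. The annotation, the use of strand and the treatment of multiply mapped reads are not given in the sources used here. A further column of the authors' p-values was not used. The table was used as deposited, and a symbol present in several rows was represented by its most abundant row.

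The 13266 genes averaging 0.1 RPKM or more were compared on log2(RPKM + 1) with limma 3.58.1 in R 4.3.3 (lmFit, eBayes with trend), two-sided, with Benjamini-Hochberg adjustment, after the code was tested on simulated data. Intervals at 95% are from the same fit. A small pseudocount shifts the fold changes of low genes, whereas a filter on low values leaves them and shifts the adjusted p. RPKM is relative, so abundant transcripts in 1 group lower all others. Depth was estimated in Python 3.11.15 with genes of 1 transcript in GENCODE M21, whose gene positions are given. That depth was chosen for its match to whole reads, so no count test was run. Promoters are from RefSeq (GRCm38.p6). The genes, the lists and the tests were chosen with earlier results of these data known, and the ligand sums and the values relative to stromal markers were added after values were seen. Named genes of a pathway list were up to 4 called genes with the largest change, and of a marker list the 3 most abundant, and the genes most like Pdgfra and Pdgfrb were the 3 with the highest r. Some genes that the rule names are not reported here. Other named genes of the lists were picked after their values were seen. They include genes that moved against their list, were not called, were low or below the minimum, or are defining markers.

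Replicate numbers are shared between the groups. Deviations from the group means correlated across genes with r = 0.149, 0.117 and 0.462 for numbers 1, 2 and 3, so a fit with the number as a block was added. What the numbers refer to is not in the labels. Control replicate 1 with siTet1/Tet2 replicate 2 gave 0.332, and control replicate 2 with siTet1/Tet2 replicate 1 gave 0.205. Both exceeded the values for numbers 1 and 2, so only number 3 had its highest r with its own number. Alternatives were other pseudocounts, filters, scalings, eBayes without trend, summed rows and each library left out.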

Additional observations from a re-analysis of the deposited data

How the results depend on the processing

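The decreases of Pdgfra, Pdgfrb, Pdgfd, Vegfa and Vegfc held, with the same direction and limma adjusted p below 0.05, in all 17 alternatives run for each, with a highest adjusted p of 0.0119, for Vegfc. Over these alternatives the log2 fold change ranged from -3.38 to -2.28 for Pdgfra, from -2.55 to -2.13 for Pdgfrb, from -3.15 to -1.70 for Pdgfd, from -1.42 to -1.14 for Vegfa and from -1.55 to -0.71 for Vegfc. The low genes moved most with a smaller pseudocount, as its construction implies.

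Calls of higher genes depended on the scaling. Instead of 1 gene called higher there were 2 with median ratio scaling, 3 after quantile normalization and 0 relative to Gapdh, where limma gave 1 gene at an unadjusted p under 0.05. Among all genes the median log2 fold change moved from -0.09 to 0.06 after quantile normalization, and the share of calls that were lower went from 66.9% to 42.1%, against 52.7% with median ratio scaling. Small differences, such as those of Pdgfb, Pdgfc and Vegfb, are thus relative to the scaling. Vegfb turned to -0.015 when library sums were made equal, and Flt1 to 0.045 after quantile normalization. Flt1 was not tested at a mean of at least 1 RPKM.

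With the replicate block, 6 genes were called lower instead of 5, Pdgfa being the addition, 1 was called higher and 4 passed the fold change threshold, and no other call among the 10 genes changed. Paired by replicate number, the ratio of Pdgfrb to Pdgfra differed by 0.86 and that of Vegfa to Vegfb by -1.39 on the log2 scale, each with an exact sign-flip permutation p of 0.25, the smallest that 3 pairs allow. Leaving out one replicate gave 5 to 6 genes called lower, 1 called higher in each, and 4 to 5 past the fold change threshold. The ratio of Pdgfrb to Pdgfra then differed by 0.71 to 0.98, and by 0.17 with 1 RPKM added to both values. The ratio of Vegfa to Vegfb differed by -1.54 to -1.25 without one replicate.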
